A study of Mus musculus with 8 samples.

Results

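The endoplasmic reticulum (ER) genes described here are 38 genes for chaperones, disulfide-forming enzymes, ER-associated degradation (ERAD) and the sensors that control them, chosen by gene symbol from a list. All 38 were present among the 55414 gene identifiers in the files, and all 38 passed the filter on low counts. They were measured by RNA sequencing in pancreatic islets, the endocrine clusters of the pancreas, from C57BL/6 mice at 5 weeks of age. The group labelled TG (4 libraries) had the genotype Ins2 cre(+/-) ATF4 TG(+/-), that is, an ATF4 transgene together with Cre recombinase under a driver whose name ties it to Ins2, which encodes insulin in beta cells. The group labelled WT (4 libraries) had the genotype Ins2 cre(-/-) ATF4 TG(+/-), so its mice carried the ATF4 transgene too, without the Cre driver. An effect of Cre itself and one of the transgene in its presence cannot be told apart, because no group carried Cre without the transgene. The labels leave unsaid whether each library is a mouse of its own, so the p-values reflect the spread among these samples alone, and that spread may be technical.

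Proteins of the secretory pathway fold in the ER, where HSP70 and HSP90 chaperones hold unfolded chains, lectin chaperones bind their sugars and protein disulfide isomerases join their cysteines. Chains that fail are drawn back to the cytosol and degraded by the proteasome, a process called ERAD. Unfolded protein activates the ER sensors IRE1, ATF6 and PERK. IRE1 and ATF6, acting through XBP1 and ATF6 itself, raise chaperone and ERAD genes, while PERK phosphorylates eIF2 and so raises translation of ATF4. Beta cells make large amounts of proinsulin, which needs disulfide bonds, and depend heavily on this machinery.

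The libraries held 16521087 to 22499999 counts assigned to genes. Levels are given in CPM, a gene's counts relative to all counts of its library, with library sizes scaled by TMM, a method that balances the bulk of genes between libraries. Atf4 itself had 272, 278, 234 and 259 CPM in the TG-labelled libraries (replicates 1 to 4), against 378, 326, 351 and 353 CPM in the WT-labelled libraries, a log2 fold change of −0.43 (SE 0.0855, adjusted p = 0.00226, edgeR quasi-likelihood test). Counts under the endogenous Atf4 gene were thus lower in the libraries labelled TG, with no overlap. With the endothelial and stromal covariate Atf4 measured −0.49 (adjusted p = 0.396) and with the leukocyte covariate −0.43 (adjusted p = 0.0906). Whether reads from the transgene fall under this gene is not known, so these counts do not check the labels, and every direction below holds for libraries as labelled. The beta-cell markers summed to 50093 to 64198 CPM in the TG-labelled libraries and 103120 to 123756 CPM in the WT-labelled libraries, with 10 of 10 called lower. Markers of other cells were higher in the TG-labelled libraries: endothelial markers (10 of 10 called higher) summed to 1312 to 1344 CPM in TG-labelled against 544 to 939 CPM in WT-labelled libraries, stromal markers (8 of 10 higher) to 902 to 1334 CPM in TG-labelled against 356 to 678 CPM in WT-labelled libraries, ductal markers (6 of 8 higher) to 1069 to 1386 CPM in TG-labelled against 564 to 657 CPM in WT-labelled libraries, and leukocyte markers (6 of 9 tested higher) to 178 to 460 CPM in TG-labelled against 102 to 161 CPM in WT-labelled libraries. Acinar markers, of cells that are themselves rich in ER, had 1 of 15 called higher and ran from 7342 to 46634 CPM in the TG-labelled libraries, highest in replicate 1, and from 1498 to 14195 CPM in the WT-labelled libraries. Alpha-cell markers (0 of 6 called) summed to 28726 to 49191 CPM in TG-labelled against 20267 to 36995 CPM in WT-labelled libraries, and those of delta and PP cells (0 of 5 called) to 9113 to 11696 CPM in TG-labelled against 8303 to 10959 CPM in WT-labelled libraries. No marker of these lists was at 0 in all libraries, and 1 leukocyte marker was at 0 in a library. In such bulk samples fewer cells of a type and less RNA per cell cannot be told apart.

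Of the 38 ER genes, 4 were higher and 4 were lower in the TG-labelled islets at an adjusted p under 0.05, and 30 did not pass. The 8 called genes are 21.1% of the 38, against 20.1% of all 20509 genes tested (12.1% higher and 8.06% lower), so the share called among ER genes was near that of the transcriptome. The calls were Ero1l, Sel1l, Herpud1 and Ern1 (higher) and Ero1lb, Atf6b, Hyou1 and Manf (lower). The median log2 fold change of the 38 was −0.08, against −0.00186 over all tested genes, and the median size of change without its sign was 0.17, against 0.30. A log2 change of at least 0.5 in either direction was measured for 4 of the 38 genes (10.5%), namely Ero1l, Ero1lb, Sel1l and Herpud1, and for 32.7% of all tested genes. These sizes were not compared at matched abundance. The lowest mean level among the 38 was that of Derl3 (12.0 CPM in TG-labelled, 8.94 CPM in WT-labelled libraries), while all tested genes include rarer ones. Whether ER genes changed less than equally abundant genes was not tested. The groups did not overlap for 11 of the 38 genes (28.9%), against 22.6% of all tested genes. Summed over the 38 genes, the TG-labelled libraries had 21255, 20709.5, 19106 and 20607 CPM and the WT-labelled libraries 23356, 20797, 24718 and 22836 CPM. The highest TG-labelled library thus lay above the lowest WT-labelled library.

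**Figure D1:**
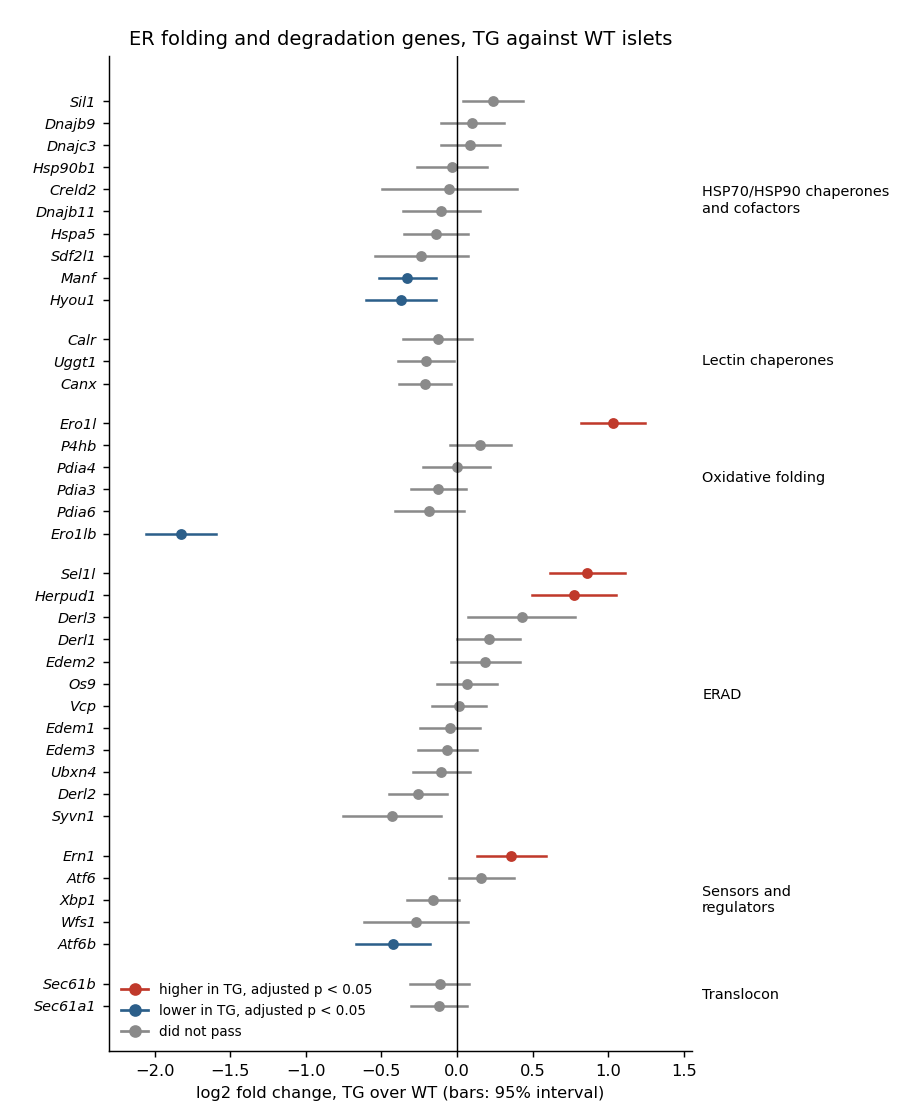
Log2 fold change (TG over WT, as labelled; x axis) of the 38 ER genes, grouped by role, with 95% intervals from the edgeR fit. Red points passed the test as higher in TG and blue points as lower, and 30 grey points did not pass. Ero1lb at −1.83 and Ero1l at 1.03 lie farthest from 0.

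The most abundant ER chaperones did not pass the test. Hspa5, the HSP70 chaperone BiP that also restrains the sensors, had 2520, 2105, 2039 and 2195 CPM in the TG-labelled libraries and 2624, 2101, 2623 and 2411 CPM in the WT-labelled libraries. The groups overlapped, and the log2 fold change was −0.14 (95% interval −0.35 to 0.07, adjusted p = 0.371, edgeR). Hsp90b1, the ER member of the HSP90 family (GRP94), measured 2118 ± 267 CPM in TG-labelled against 2169 ± 250 CPM in WT-labelled libraries (SD, n = 4 each), with a 95% interval of the log2 fold change of −0.26 to 0.20. The J-domain cofactors that drive BiP did not pass either, with 95% intervals in parentheses: Dnajb9 measured 0.10 (−0.11 to 0.31), Dnajb11 −0.10 (−0.36 to 0.15) and Dnajc3 0.09 (−0.11 to 0.28) on the log2 scale. Dnajb9 and Sdf2l1 are widely used readouts of IRE1 and ATF6 activity in other cells. Sdf2l1, a partner of the J-domain proteins, measured 135 ± 17.2 CPM in TG-labelled against 159 ± 35.3 CPM in WT-labelled libraries (SD, n = 4 each; log2 fold change −0.24, adjusted p = 0.284). It was lower past the threshold when the mean of the acinar markers was a covariate (−0.41, adjusted p = 0.0171) and with the endothelial and stromal covariate (−1.10, adjusted p = 0.00645). Creld2, a secreted ER stress protein, ran from 129 to 220 CPM in the TG-labelled libraries and from 132 to 206 CPM in the WT-labelled libraries, the widest spread of the role relative to its mean in the TG-labelled libraries.

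Among these 10 chaperones and cofactors 2 fell and 0 rose, against 8.06% lower and 12.1% higher over all tested genes. Hyou1, a large HSP70 relative that exchanges nucleotide on BiP, had 706, 706, 614 and 563 CPM in the TG-labelled libraries and 821, 781, 1002 and 740 CPM in the WT-labelled libraries. The groups did not overlap, though the highest TG-labelled and the lowest WT-labelled libraries lay close together. Hyou1 fell by 0.37 on the log2 scale (SE 0.109, edgeR adjusted p = 0.0259), and the call was lost without TG replicate 3 (−0.38, adjusted p = 0.051) and without WT replicate 3 (−0.28, adjusted p = 0.076). Manf, a secreted neurotrophic factor that binds BiP and that beta cells need to survive in mice, had 312, 310, 260 and 317 CPM in TG-labelled against 378, 350, 394.5 and 384 CPM in WT-labelled libraries, again without overlap. Manf fell by 0.33 on the log2 scale (SE 0.0876, adjusted p = 0.015). Sil1, the other nucleotide exchange factor of BiP, measured 105 ± 12.6 CPM in TG-labelled against 89.5 ± 3.08 CPM in WT-labelled libraries (SD, n = 4 each) and did not pass (0.24, adjusted p = 0.0894), although its groups did not overlap.

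The lectin chaperones hold glycoproteins until they are folded, and Uggt1 is the enzyme that sends misfolded ones back to them. None of the 3 genes passed the test in edgeR, where 2 (Canx and Uggt1) had 95% intervals of the fold change that excluded 0. Canx, the membrane-bound lectin calnexin, had 1257, 1218, 1208 and 1321 CPM in the TG-labelled libraries and 1511, 1342, 1453 and 1487 CPM in the WT-labelled libraries, with no overlap. Its log2 fold change was −0.21 (interval −0.38 to −0.04, adjusted p = 0.0832), and DESeq2 called it lower (adjusted p = 0.0185). Canx was called lower in 4 of 21 other settings, DESeq2 among them. Calr, the soluble lectin calreticulin, was the most abundant of the 38 genes per kilobase of exon, at 724 CPM per kb in the TG-labelled and 791 CPM per kb in the WT-labelled libraries, and its groups overlapped. Uggt1 measured −0.21 (interval −0.39 to −0.02, adjusted p = 0.113), and it was called lower by DESeq2 (adjusted p = 0.0473) and with upper-quartile scaling (adjusted p = 0.0419).

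**Figure D2:**
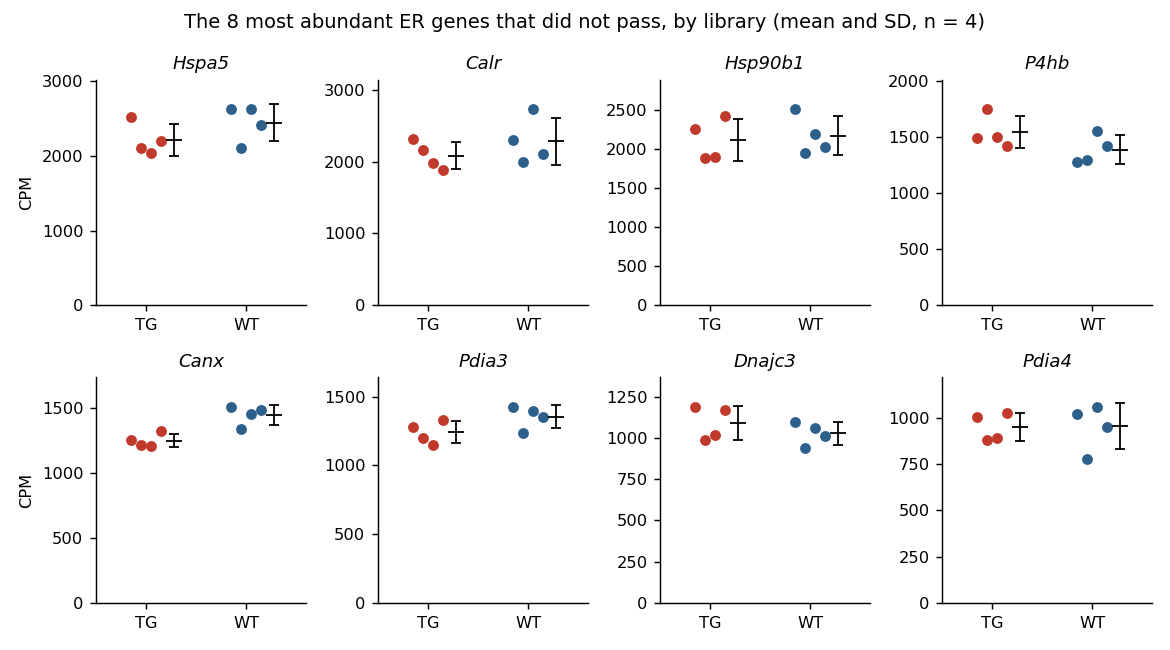
CPM (y axis, from 0) in each TG-labelled (left, red) and WT-labelled (right, blue) library for the 8 most abundant ER genes that did not pass the test. The black line and bar are the mean and SD of 4 libraries. The groups overlap in every panel except Canx.

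Many of these genes carry in their promoters the ER stress response element (ERSE), CCAAT and CCACG with 9 bases of any kind between them, which ATF6 and XBP1 are known to use with the factor NF-Y. The 250 bases before the RefSeq transcription start (build GRCm38.p6) were available for 32 of the 38 genes (not Hyou1, Manf, Sil1, Derl1, Atf6 or Sec61a1) and were searched on both strands. An exact ERSE was found in 10 of the 32, against 0.113% of all 32851 promoter windows of this length. The 11 matches are shown in the direction of the element, with the fixed CCAAT and CCACG in capitals, to let the spacers be compared.
Hspa5: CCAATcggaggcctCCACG
Hsp90b1, upstream copy: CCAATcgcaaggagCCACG
Hsp90b1, downstream copy: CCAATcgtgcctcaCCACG
Dnajc3: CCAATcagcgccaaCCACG
Creld2: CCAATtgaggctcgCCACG
Calr: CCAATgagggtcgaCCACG
Canx: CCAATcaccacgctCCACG
Pdia6: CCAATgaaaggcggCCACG
Ero1lb: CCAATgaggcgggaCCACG
Syvn1: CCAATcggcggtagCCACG
Derl3: CCAATggggaagtcCCACG
Of these 10 genes, 1 (Ero1lb, lower) passed the test and 0 were higher, with a median log2 fold change of −0.13. The other 9 ran from −0.43 (Syvn1) to 0.43 (Derl3). For 7 of the 9, the 95% interval stayed within a 1.5-fold change in either direction. The 22 genes with a window but no exact ERSE had 4 called higher and 1 called lower, with a median of −0.06. Over all tested genes 12.1% were higher and 8.06% lower, and the difference between genes with and without an exact match was not tested. Inexact matches were not counted, so the 22 genes cannot be said to lack such elements. Herpud1, 1 of the 4 called higher, holds a shorter form of the element, described below. The promoter of Hspa5 is the usual example of the element, and its window, with the exact match in capitals, reads as follows.
Hspa5 (chr2:34771840-34772089, plus strand): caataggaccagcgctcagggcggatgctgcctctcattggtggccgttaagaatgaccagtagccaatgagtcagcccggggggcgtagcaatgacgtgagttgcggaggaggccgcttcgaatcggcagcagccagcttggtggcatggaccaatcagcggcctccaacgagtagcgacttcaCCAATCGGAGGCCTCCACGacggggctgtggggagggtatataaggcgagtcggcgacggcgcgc
A match is a description of the letters, and binding was not measured here.

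Disulfide bonds are made by a relay in which an ERO1 oxidase takes electrons from a protein disulfide isomerase (PDI) and passes them to oxygen. The isomerases did not pass the test, whereas both oxidases changed, in opposite directions. P4hb, the founding PDI, had 1492, 1746, 1497 and 1420 CPM in the TG-labelled libraries against 1273, 1290, 1550 and 1419 CPM in the WT-labelled libraries (0.15, interval −0.05 to 0.36). Pdia3, which works with the lectins, measured −0.12 (−0.31 to 0.06), Pdia4 −0.004 (−0.22 to 0.22) and Pdia6 −0.18 (−0.41 to 0.05).

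Ero1lb (named Ero1b in newer annotations), the oxidase enriched in the pancreas, had 723, 824, 630 and 755 CPM in the TG-labelled libraries and 2319, 2358, 2798 and 2925 CPM in the WT-labelled libraries. Every TG-labelled library lay far below every WT-labelled one, at 3.55-fold lower in the fit (log2 fold change −1.83, SE 0.109, adjusted p = 2.55e-08, edgeR). Ero1l (Ero1a in newer annotations), the widely expressed oxidase, had 92.6, 124, 115 and 116 CPM in the TG-labelled libraries and 51.9, 53.0, 54.7 and 59.9 CPM in the WT-labelled libraries, with no overlap. It was 2.04-fold higher in the TG-labelled libraries (log2 fold change 1.03, SE 0.0997, adjusted p = 4.78e-06). Both calls held in each of 21 other settings, with Ero1lb between −1.89 and −1.77 and Ero1l between 0.88 and 1.23. None of these settings had the beta-cell markers as a covariate.

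The rise of Ero1l was small in absolute terms beside the fall of Ero1lb. Per kilobase of exon, Ero1lb stood at 110 ± 12.1 CPM per kb in the TG-labelled libraries and 391 ± 46.1 CPM per kb in the WT-labelled libraries (SD, n = 4 each). Ero1l stood at 21.2 ± 2.57 CPM per kb in the TG-labelled libraries and 10.4 ± 0.673 CPM per kb in the WT-labelled libraries. Both oxidases together gave 126, 147, 117 and 135 CPM per kb in the TG-labelled libraries, against 358, 364, 431 and 451 CPM per kb in the WT-labelled libraries. The share of Ero1l in that sum was 13.9%, 16.0%, 18.7% and 16.2% in the TG-labelled libraries and 2.74%, 2.75%, 2.40% and 2.51% in the WT-labelled libraries. By level per kilobase Ero1lb was 15th among the 38 genes in the TG-labelled libraries and 7th in the WT-labelled libraries, while Calr was first in both. The level of Ero1lb over that of P4hb, both per kilobase, was 0.205 ± 0.0195 in the TG-labelled libraries and 0.808 ± 0.0524 in the WT-labelled libraries (SD, n = 4 each).

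**Figure D3:**
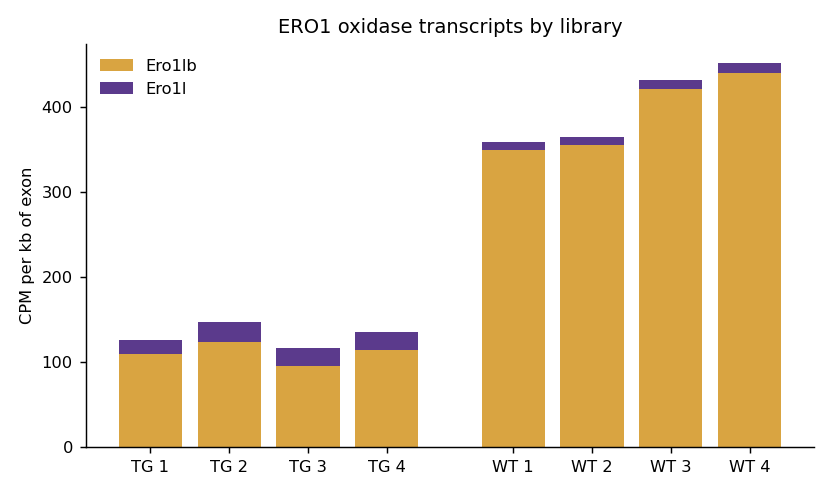
Level of the ERO1 oxidase transcripts in CPM per kilobase of exon (y axis, from 0) in each library as labelled (x axis, TG left). Ero1lb is yellow and Ero1l, stacked on it, is purple. The sum is 117 to 147 in the TG-labelled libraries and 358 to 451 in the WT-labelled libraries.

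The promoters of the oxidases differ in exact matches to the element described above, and both are shown for comparison with the ERSE in capitals. The window of Ero1lb holds 1 exact ERSE on the minus strand, and that of Ero1l holds no exact match to any motif searched.
Ero1lb (chr13:12565633-12565882, plus strand): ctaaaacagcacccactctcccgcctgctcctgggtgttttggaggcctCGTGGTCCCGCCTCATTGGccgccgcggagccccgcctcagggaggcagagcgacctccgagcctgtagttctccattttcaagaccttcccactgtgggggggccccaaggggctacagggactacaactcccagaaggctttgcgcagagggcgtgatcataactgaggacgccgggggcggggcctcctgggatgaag
Ero1l (chr14:45318573-45318822, minus strand): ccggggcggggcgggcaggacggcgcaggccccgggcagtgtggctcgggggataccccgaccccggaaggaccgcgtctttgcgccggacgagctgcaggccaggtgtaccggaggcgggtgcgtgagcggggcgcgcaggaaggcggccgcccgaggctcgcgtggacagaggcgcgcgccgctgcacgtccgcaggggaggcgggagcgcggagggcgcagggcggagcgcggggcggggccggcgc

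Insulin, a main client of this relay in beta cells, was also lower, as Ins1 (−1.59, SE 0.195, adjusted p = 0.0004) and Ins2 (−1.05, SE 0.103, adjusted p = 5.29e-06) in the edgeR fit. With the endothelial and stromal covariate neither passed, at −1.70 for Ins1 (adjusted p = 0.106) and −0.81 for Ins2 (adjusted p = 0.127). Ins1 and Ins2 together had 38949, 47501, 36330 and 38032 CPM in the TG-labelled libraries and 101483, 87801, 82991 and 86067 CPM in the WT-labelled libraries, and reads of these similar genes can be split uncertainly between them. For every 100 insulin counts there were 5.57 ± 0.846 counts of Hspa5 in the TG-labelled libraries and 2.74 ± 0.329 in the WT-labelled libraries (SD, n = 4 each). The same ratio for Ero1lb was 1.83 ± 0.119 in the TG-labelled libraries and 2.94 ± 0.544 in the WT-labelled libraries, and the groups did not overlap in either ratio. All 38 genes together had 43.6 to 54.6 counts per 100 insulin counts in the TG-labelled libraries and 23.0 to 29.8 in the WT-labelled libraries. These ratios are descriptions of counts and were given no test. Their divisor, insulin, was lower in the TG-labelled libraries, while Hspa5 itself did not pass the test (−0.14). The counts come from all cells of the samples, so the ratios are not levels per beta cell.

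In ERAD, 2 of 12 genes rose, 0 fell and 10 did not pass, with a median log2 fold change of 0.04. The share called among these 12 (16.7%) was below the 20.1% of all tested genes, so the count is no result about ERAD genes as a group. Sel1l, the adaptor that holds the HRD1 ubiquitin ligase together, had 426, 398, 324 and 337 CPM in the TG-labelled libraries and 208, 186, 247 and 178 CPM in the WT-labelled libraries. Its groups did not overlap, and it was 1.81-fold higher (log2 fold change 0.86, SE 0.116, adjusted p = 0.000128, edgeR). With the mean of the endothelial and stromal markers as a covariate, Sel1l measured 0.27 (adjusted p = 0.761), the one setting of 21 in which its call was lost. Herpud1, a membrane protein of the HRD1 complex that ER stress is known to raise, had 368, 477, 371 and 390 CPM in TG-labelled against 209, 191, 248 and 293 CPM in WT-labelled libraries, again with no overlap. It was 1.71-fold higher (0.77, SE 0.129, adjusted p = 0.000786). With the endothelial and stromal covariate it measured 0.83 (adjusted p = 0.282) and with the leukocyte covariate 0.75 (adjusted p = 0.0704), so its size stayed while the call was lost.

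Syvn1, which encodes the ligase HRD1 itself, did not pass the test. It was among the least abundant of the 38 genes, at 13.77, 17.56, 21.76 and 16.86 CPM in the TG-labelled libraries and 20.05, 27.45, 20.97 and 25.97 CPM in the WT-labelled libraries. The groups overlapped and its log2 fold change was −0.43 (interval −0.75 to −0.11, adjusted p = 0.0595), while DESeq2 called it lower (adjusted p = 0.04). Syvn1 was called lower in 8 of 21 other settings, DESeq2 among them, and its direction reversed in 1. The level of Sel1l over that of Syvn1, per kilobase, was 17.6, 12.9, 8.47 and 11.3 in the TG-labelled libraries and 5.88, 3.86, 6.68 and 3.89 in the WT-labelled libraries, with no overlap. The derlins, thought to form part of the channel out of the ER, did not pass: Derl1 measured 0.21 (adjusted p = 0.154), Derl2 −0.26 (adjusted p = 0.055) and Derl3 0.43 (adjusted p = 0.086). The groups did not overlap for Derl2, and it was called lower in 6 of 21 other settings, among them DESeq2 (−0.27, adjusted p = 0.0318). Derl1 was called higher with the acinar covariate (0.32, adjusted p = 0.0229) and without TG replicate 1 and WT replicate 4 (0.33, adjusted p = 0.0317). Derl3 was rare, at 11.2 to 13.8 CPM in TG-labelled against 6.72 to 10.1 CPM in WT-labelled libraries. The EDEM mannosidases, which trim sugars to mark a protein for removal, gave 0.19 (Edem2), −0.05 (Edem1) and −0.06 (Edem3), and the lectin Os9, which reads that mark, 0.07. Vcp, the ATPase that pulls proteins out, measured 326 ± 18.6 CPM in TG-labelled against 323 ± 20.4 CPM in WT-labelled libraries (SD, n = 4 each), and its docking protein Ubxn4 measured −0.10. Near-identical copies could share reads with Vcp, since 66.7% of the 100-base stretches of its transcript matched another annotated transcript at 97% identity or more. Its closest copy held 497 counts in the 8 libraries against 52458 for Vcp.

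The promoters of the ERAD genes that rose are shown because Herpud1 holds both an ERSE-II (ATTGG and CCACG with 1 base of any kind between them, a shorter form of the element) and a C/EBP-ATF response element (CARE, TGATGNAA, the composite site that ATF4 is known to bind with C/EBP factors), here read on the minus strand. ERSE-II was found in 1 of the 32 genes with a window, against 0.0304% of all windows. CARE was found in 1 of the 32, near the 3.45% of all windows, so its count is no result about these genes. The 2 elements do not overlap in the window of Herpud1, and capitals mark the matches. The window of Sel1l holds no exact match to any motif searched, and the UPRE (TGACGTGG) was found in 1 gene, Vcp, against 0.563% of all windows.
Herpud1 (chr8:94386179-94386428, plus strand): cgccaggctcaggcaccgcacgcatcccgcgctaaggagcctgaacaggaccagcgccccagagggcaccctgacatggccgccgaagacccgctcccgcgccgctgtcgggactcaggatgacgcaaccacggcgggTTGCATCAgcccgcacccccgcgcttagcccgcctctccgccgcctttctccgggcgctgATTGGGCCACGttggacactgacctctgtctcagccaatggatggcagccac
Sel1l (chr12:91849158-91849407, minus strand): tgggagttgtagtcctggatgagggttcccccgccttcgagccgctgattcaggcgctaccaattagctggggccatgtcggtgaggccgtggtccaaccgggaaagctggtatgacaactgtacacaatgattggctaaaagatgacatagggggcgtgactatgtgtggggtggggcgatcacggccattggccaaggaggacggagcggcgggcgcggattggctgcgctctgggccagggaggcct

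**Figure D4:**
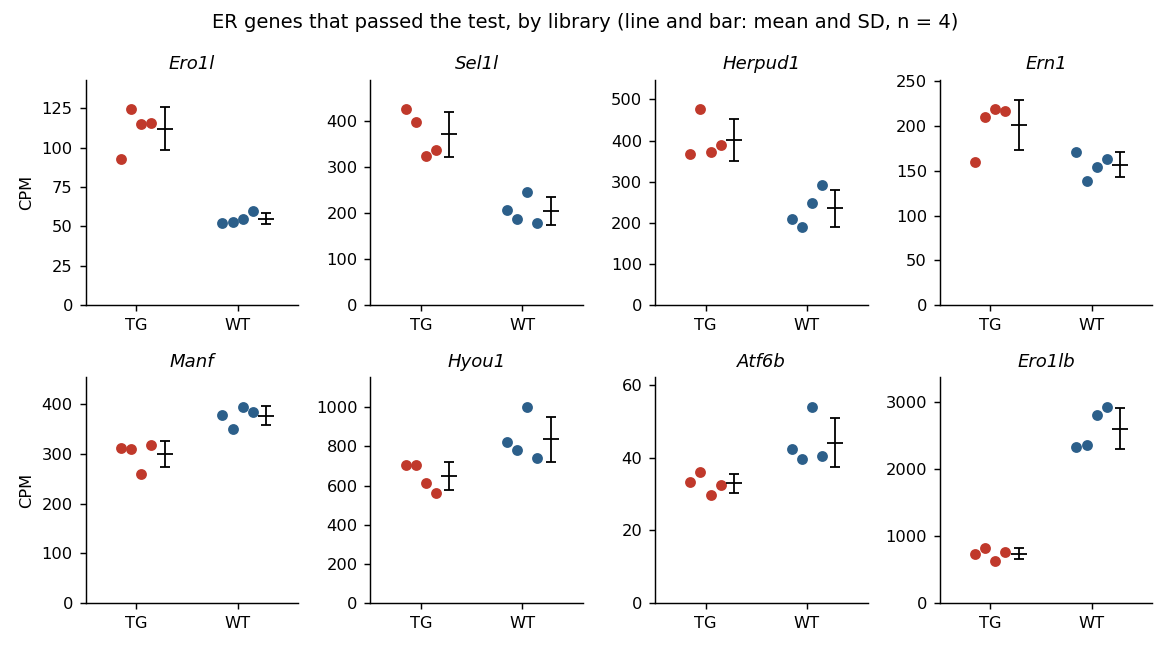
CPM (y axis, from 0) in each TG-labelled (left, red) and WT-labelled (right, blue) library for the 8 ER genes that passed the test. The black line and bar are the mean and SD of 4 libraries. The groups are apart in every panel except Ern1, where the lowest TG-labelled library (159.5 CPM) lies below the highest WT-labelled library (171 CPM).

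Of the 5 sensor and regulator genes, 1 rose and 1 fell, a count too small to read against the 12.1% higher and 8.06% lower of all tested genes. Ern1, which encodes the sensor IRE1 alpha, had 159.5, 209.5, 219 and 217 CPM in the TG-labelled libraries and 171, 139, 155 and 163 CPM in the WT-labelled libraries. TG replicate 1 lay within the WT-labelled range and the other 3 above it. Ern1 rose by 0.36 on the log2 scale (SE 0.106, adjusted p = 0.0258, edgeR). This call was lost when TG replicate 2 (0.34), 3 (0.28) or 4 (0.29) was left out. It was also lost without WT replicate 2 (0.30) or 3 (0.35). Each of these values stayed above 0, in a fit with fewer libraries. Atf6b, a relative of ATF6 with weaker activity, had 33.5, 36.0, 29.8 and 32.6 CPM in the TG-labelled libraries and 42.4, 39.7, 54.1 and 40.6 CPM in the WT-labelled libraries. It fell by 0.42 on the log2 scale (SE 0.115, adjusted p = 0.0169) with no overlap. Atf6 measured 216 ± 26.1 CPM in TG-labelled against 193 ± 19.6 CPM in WT-labelled libraries (SD, n = 4 each; 0.16, interval −0.06 to 0.38, adjusted p = 0.311). Xbp1, whose mRNA IRE1 splices into the active form, measured 210 ± 15.4 CPM in TG-labelled against 234 ± 8.23 CPM in WT-labelled libraries (SD, n = 4 each; −0.16, interval −0.33 to 0.01, adjusted p = 0.191). Gene counts do not tell spliced from unspliced Xbp1. Wfs1, a membrane protein that restrains ATF6 and is lost in Wolfram syndrome, was at 41.1 ± 9.16 CPM in TG-labelled against 49.8 ± 7.54 CPM in WT-labelled libraries (SD, n = 4 each; adjusted p = 0.269).

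The translocon, through which new chains enter the ER, was represented by Sec61a1 (−0.12, interval −0.31 to 0.07) and Sec61b (−0.12, interval −0.31 to 0.08), and neither passed. Sec61b has near-identical copies over 4 of its 5 stretches of 100 bases, so its counts are uncertain.

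A further 92 genes of the same roles were examined beside the 38, and 91 of them were tested. Of these, 7 were higher and 5 lower, 13.2% of those tested against 20.1% of all genes, with a median log2 fold change of −0.02. Among factors of the sensors, Tmbim6, an ER membrane protein known as BAX inhibitor 1 that binds IRE1, rose to 392.5 ± 61.6 CPM in TG-labelled against 200 ± 16.5 CPM in WT-labelled libraries (SD, n = 4 each; 0.97, adjusted p = 2.26e-05). Among ERAD genes Svip, a small inhibitor that binds VCP and derlin 1, fell to 99.4 ± 10.4 CPM in TG-labelled against 172 ± 9.19 CPM in WT-labelled libraries (SD, n = 4 each; −0.79, adjusted p = 2.29e-05). It was the 1 called gene among 22 further ERAD genes (4.55%, against 20.1% of all tested genes).

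Among 17 further genes of oxidative folding, 3 rose and 0 fell, beside 12.1% of all tested genes higher and 8.06% lower, so the count is no result about these genes as a group. Prdx4, an ER peroxiredoxin, reached 63.0 ± 9.86 CPM in TG-labelled against 44.2 ± 3.83 CPM in WT-labelled libraries (0.51, adjusted p = 0.00538), Gpx7 6.58 ± 0.805 CPM in TG-labelled against 2.43 ± 0.794 CPM in WT-labelled libraries (1.42, adjusted p = 0.00119) and Gpx8 23.9 ± 8.82 CPM in TG-labelled against 7.66 ± 3.77 CPM in WT-labelled libraries (1.63, adjusted p = 0.023), all SD with n = 4 each. With the endothelial and stromal covariate Gpx8 measured −0.21 (adjusted p = 0.932), Prdx4 0.29 (adjusted p = 0.815) and Gpx7 1.35 (adjusted p = 0.497). The call of Gpx8 was also lost without TG replicate 3 (adjusted p = 0.0505), without WT replicate 1 (adjusted p = 0.076) and without WT replicate 2 (adjusted p = 0.073). Of 19 further chaperones and prolyl isomerases, 2 were higher and 2 lower (21.1% called, near the 20.1% of all tested genes). Fkbp7 (1.33, adjusted p = 0.000146) and Ppic (1.67, adjusted p = 0.0119) rose, and Fkbp9 (−0.41, adjusted p = 0.00362) and Fkbp2 (−0.25, adjusted p = 0.0452) fell. Fkbp2 is named to complete the count and was chosen after its values were seen. With the same covariate Fkbp7 measured 0.34 (adjusted p = 0.813) and Ppic −0.19 (adjusted p = 0.907).

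Of 8 further genes of the lectin cycle, 1 rose (12.5%, near the 12.1% of all tested genes that were higher). It was Clgn, a calnexin relative known from the testis, at 8.43 ± 1.19 CPM in TG-labelled against 4.51 ± 1.17 CPM in WT-labelled libraries (SD, n = 4 each; 0.90, adjusted p = 0.00849). Of 16 further genes of the translocon and signal peptidase, 2 fell and 0 rose: Spcs3, a subunit of signal peptidase (−0.39, adjusted p = 0.00397), and Sec61g, the smallest part of the channel (−0.36, adjusted p = 0.0325). The call of Sec61g was lost without TG replicate 3 (adjusted p = 0.0808), without TG replicate 4 (adjusted p = 0.0544) and without WT replicate 1 (−0.26, adjusted p = 0.109). The share called among these 16 genes was 12.5%, against 20.1% of all tested genes (12.1% higher and 8.06% lower), so the count is no result about them as a group. Their median log2 fold change was −0.15. None of the further genes named here was called with the endothelial and stromal covariate.

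**Figure D5:**
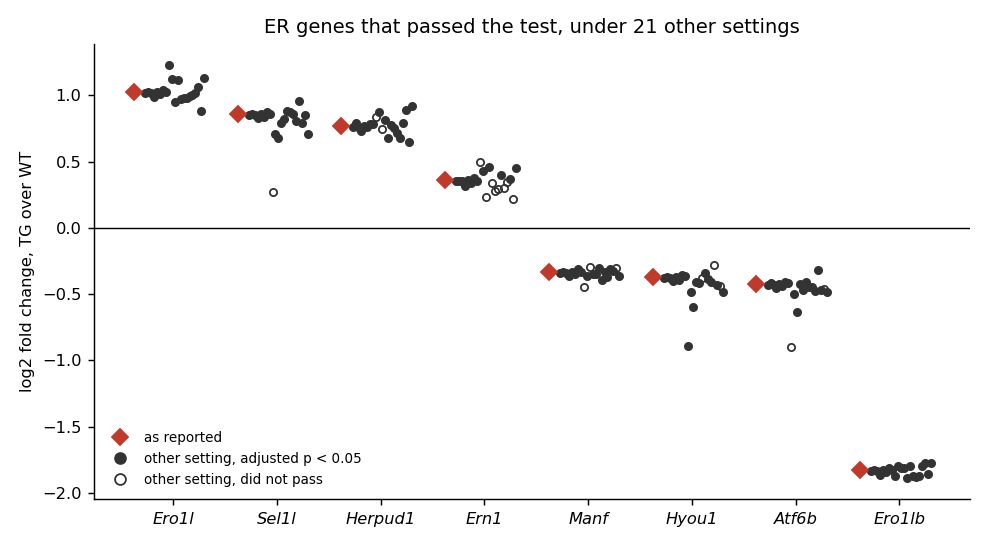
Log2 fold change (TG over WT, y axis) of the 8 ER genes that passed the test, as reported (red diamond) and under 21 other settings (circles, filled where the adjusted p was under 0.05). Ero1l and Ero1lb are filled in all 21, and no gene crosses 0.

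Endothelial, stromal, ductal and leukocyte markers were mostly called higher in the TG-labelled libraries. Of the acinar markers 1 of 15 was called higher, and no alpha, delta or PP cell marker was called. The test was repeated with marker means as covariates, and a call can be lost in such a fit through a larger SE alone. The SE of the Hspa5 log2 fold change was 0.0992 without a covariate and 0.219 with the endothelial and stromal covariate. With the endothelial and stromal covariate, whose values did not overlap between the groups, 276 genes were called in all (1.35% of those tested, 0.561% higher and 0.785% lower), and 1 of the 38 was higher (Ero1l) and 3 lower (Ero1lb, Hyou1 and Sdf2l1). With the leukocyte covariate 1055 genes were called (5.14%, with 2.41% higher and 2.74% lower), and 2 of the 38 were higher (Ero1l and Sel1l) and 3 lower (Ero1lb, Hyou1 and Atf6b). Manf missed the threshold with the endothelial and stromal covariate (−0.45, adjusted p = 0.467) and with the leukocyte covariate (−0.30, adjusted p = 0.261), Atf6b with the endothelial and stromal covariate (−0.90, adjusted p = 0.0617), and Ern1 with each (0.49, adjusted p = 0.541, and 0.23, adjusted p = 0.504). Beta-cell and ductal markers were not used as covariates. The part that a changed cell mixture has in the differences, large or small, was not otherwise tested. Other ways of counting gave other backgrounds. DESeq2 called 4 of the 38 higher and 8 lower, against 23.7% of all genes in either direction (13.7% higher and 10% lower), and upper-quartile scaling called 4 higher and 8 lower, against 21.8% (11.4% higher and 10.4% lower). With the replicate number as a block, 4 were higher and 6 lower, against 22.8% (13.5% higher and 9.28% lower). Without TG replicates 2 and 3, whose leukocyte markers were highest, 3 were higher and 2 lower, against 10% (5.62% higher and 4.38% lower), a setting chosen after seeing the data.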

How the data were processed

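Islet RNA from the TG-labelled (4) and WT-labelled (4) samples was sequenced. The deposited values are raw counts of reads per gene, 1 table per library, made by the authors with STAR 2.7.10a and HTSeq 0.11.3 on mm39, per the submitters' processing notes; the strand setting and the annotation release are not given in the sources used here. Reads in no gene were 25.3% to 31.5% and ambiguous reads 3.74% to 4.36% of each table and stayed out of library sizes. With 16521087 to 22499999 gene counts per library, 3 counts are 0.133 to 0.182 CPM.

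Identifiers were paired with symbols through a table of gene names (52081 of 55414 matched). Genes were kept by edgeR's filterByExpr (minimum count 10), which left 20509, scaled by TMM and tested with edgeR 4.0.16 (quasi-likelihood test, 2-sided, TG over WT, R 4.3.3) with Benjamini-Hochberg adjustment over all of them. SEs and 95% intervals come from that fit. Levels per kilobase use summed exon lengths of a mouse annotation of build GRCm38, not the authors' build. Alternatives were DESeq2 1.42.0, limma 3.58.1 (voom), other scalings and filters, the replicate number as a block, marker covariates and libraries left out. The test was checked on simulated data. Promoter letters and coordinates are from RefSeq on GRCm38.p6, and no coordinates of the authors' build are given.

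The 38 genes and the other lists were chosen with earlier results of these data known. Named genes are the 38, Atf4, Ins1 and Ins2, and, of the further ER genes called, the 3 with the lowest adjusted p in each role.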

Additional observations from a re-analysis of the deposited data

Results flagged for a closer look

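In 76 groups of 4 libraries (38 genes in each of 2 groups), 5 had a library whose gap to its nearest neighbour exceeded Dixon's 95% critical value, taken as a share of the group's range. Chance flags about 1 in 20 groups. Among the TG-labelled libraries, Manf was 259.7 CPM in replicate 3 (nearest 309.8 CPM), Edem2 was 134.5 CPM in replicate 2 (nearest 102.5 CPM) and Ern1 was 159.5 CPM in replicate 1 (nearest 209.5 CPM). Among the WT-labelled libraries, Dnajb9 was 241.6 CPM in replicate 4 (nearest 196.6 CPM) and Sec61a1 was 269.3 CPM in replicate 1 (nearest 288.5 CPM). The 5 values fell in 5 different libraries.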

How the results depend on the processing

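The calls of Ero1l and Ero1lb held in all 21 alternatives, none of the 8 called genes changed direction, and 24 of the 30 other genes were never called. With the endothelial and stromal covariate, 1 of the 38 genes was called higher, 0 further ER genes were called higher and 0 lower (edgeR; 4 and 7 at an unadjusted p under 0.05; DESeq2 without covariate called 8 higher and 5 lower), and 276 genes were called in all. In that fit the log2 fold change reversed for Dnajc3 (−0.12), P4hb (−0.0339), Syvn1 (0.10), Derl3 (−0.0543), Edem3 (0.21), Os9 (−0.17), Vcp (−0.17), Sec61b (0.0144), Ppic (−0.19) and Gpx8 (−0.21). With the leukocyte covariate 2 of the 38 were higher, 2 further ER genes were higher and 1 lower, and 1055 genes were called. Reversed there were Hsp90b1 (0.0420), P4hb (−0.00753), Edem2 (−0.00298), Edem3 (0.00278), Os9 (−0.0942) and Vcp (−0.0988). The acinar covariate reversed Edem1 (0.0164) and Vcp (−0.0240). DESeq2 and upper-quartile scaling each called 8 of the 38 lower. Vcp, near 0 throughout, reversed with upper-quartile scaling (−0.0233) and with no filter (−0.00708), which moved the median of all genes to 0.113. Pdia4 reversed with limma-voom (0.00166) and the filter of 1 CPM (0.0121). The causes were not tested.

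Settings chosen after seeing the data left out libraries that stood apart in markers. Without TG replicates 2 and 3, 2 of the 38 were lower, 4 further ER genes were higher and 3 lower, 2254 genes were called, and Hsp90b1 (0.0680), Pdia4 (0.05003) and Vcp (−0.0514) reversed. In that setting Manf (adjusted p = 0.100), Hyou1 (0.0636), Atf6b (0.0589) and Ern1 (0.376) missed the threshold. Without TG replicate 1 and WT replicate 4, the number of all tested genes called was 2646, and Edem1 (0.00819) and Vcp (−0.0208) reversed. Leaving out each library in turn gave 3 (without WT replicate 1) to 8 (without TG replicate 4) further ER genes lower. The number of all tested genes called moved the same way, from 3410 without WT replicate 1 to 4404 without TG replicate 4. It was 4129 with all libraries. Leaving out single libraries also gave log2 fold changes that crossed 0 for Hsp90b1 (−0.14 to 0.0378), Dnajb11 (−0.16 to 0.00637), Creld2 (−0.21 to 0.0367), Pdia4 (−0.0949 to 0.0451) and Vcp (−0.0287 to 0.0415).

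No pairing by replicate number was evident. Same-numbered libraries correlated at −0.0539, 0.0648, 0.0149 and −0.0159 in their deviations from group means, and differently numbered ones at −0.134 to 0.109. These values cannot exclude a pairing. With the replicate block, 4 of the 38 were higher and 6 lower, 4673 genes were called, and Pdia4 reversed (0.00281). Syvn1 and Derl3, at under 30 CPM, and Wfs1 are the uncalled genes whose intervals reach a 1.5-fold change.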
